A study of Homo sapiens with 6 samples.

Results

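The genes described here encode the subunits of the proteasome, the protease complex that degrades ubiquitin-tagged proteins. They were taken as every row of the deposited expected count table whose symbol is PSMA, PSMB, PSMC, PSMD or PSME followed only by a number. This gave 43 of 59251 genes, of which 40 were among the 14808 genes with enough counts for a test. PSMC4, an ATPase of the regulatory particle, is described in most detail. Total RNA was sequenced from HCT116 cells, an established human colorectal carcinoma line, in 2 groups of 3 libraries. The wild-type group (WT) carried unedited eIF6. The mutant group (MUT) came from clones made homozygous for the N106S substitution of eIF6 by CRISPR/Cas9 editing. eIF6 binds the large ribosomal subunit and keeps it from joining the small one. No treatment other than the genotype was labelled, and the labels do not say how many clones or separate cultures the 3 libraries of a group came from. The p-values therefore measure only the spread between these libraries, which may be technical. The comparison asks which proteasome genes differ in RNA level between the genotypes, and bulk RNA cannot separate a change per cell from a change in the mix of cells.

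The libraries held 53986494 to 87656970 counts, of which the small structural RNAs 7SL, 7SK, RPPH1 and RMRP took 62.7% to 84.0%. The proteasome genes received 46422 to 123023 counts per library. MUT replicate 2 had the lowest share of structural RNA and the highest share of counts in ribosomal RNA genes, 3.91%. WT replicate 1 followed with 1.16%, and the other 4 libraries lay between 0.0891% and 0.234%. Of the 3 MUT libraries, MUT replicate 2 had the highest level for 34 of the 40 tested proteasome genes (85.0%), against 37.5% of all tested genes. Results that rest on many small differences are therefore also given without this library. The epithelial keratins KRT8, KRT18 and KRT19 stood at means of 118 to 194 CPM (counts relative to the TMM-scaled library size) in both groups. The intestinal transcription factor CDX2 stood near 3 CPM, with 3.28 ± 0.11 in WT and 3.05 ± 0.70 in MUT (SD, n = 3). EPCAM, an epithelial adhesion protein, stood at 9.51 ± 0.36 and 7.52 ± 0.63 CPM (adjusted p = 0.139). CDH1, which encodes E-cadherin, had the largest difference of the list, at 0.702 ± 0.21 CPM in WT and 0.295 ± 0.10 CPM in MUT without overlap (log2 difference -1.23, SE 0.37, adjusted p = 0.119). CDX1 and VIL1 were too low to test. Of 12 markers of leukocytes, stroma, vessels, liver and red cells, only CD68 and COL1A1 had enough counts for a test, at group means of 0.480 to 1.19 CPM. The leukocyte genes PTPRC and CD3E and the haemoglobin gene HBB were at 0 in every library.

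The 26S proteasome joins a barrel-shaped 20S core to a 19S regulatory particle. In the core, outer rings of alpha subunits gate the entry and inner rings of beta subunits hold the proteolytic sites. The 19S particle binds ubiquitin chains, removes them, and unfolds the substrate with a ring of 6 ATPases, Rpt1 to Rpt6. In cells exposed to interferon gamma, the beta subunits encoded by PSMB8, PSMB9 and PSMB10 replace the standard catalytic subunits and form the immunoproteasome, and the PA28 activator encoded by PSME1 and PSME2 can take the place of the 19S cap. When proteasome capacity falls short, the transcription factor NRF1, encoded by NFE2L1, induces proteasome genes together as a bounce-back response.

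In edgeR's quasi-likelihood test, with p adjusted by the Benjamini-Hochberg method over all 14808 genes and called below 0.05, PSMC4 was the 1 proteasome gene higher in MUT. PSMB9 was the 1 proteasome gene lower. Of all tested genes, 1.91% were called, 0.986% higher and 0.925% lower, so the number of calls among the proteasome genes was near the background. The direction of the uncalled genes varied by class. All 3 MUT libraries lay above all 3 WT libraries for 16 of the 40 genes, against 12.8% of all tested genes, and below them for 7, against 13.4%. Of those 16 genes, 13 encode subunits of the 19S particle. The median log2 fold change was 0.40 over the 17 PSMC and PSMD genes of the 19S particle, which leave out its subunits SEM1 and ADRM1, 0.01 over the 14 tested constitutive genes of the 20S core and -0.01 over all tested genes. Apart from PSMC4 and PSMB9, the test called none of these differences. Scaling by library size alone moved the median of all tested genes to 0.54, and 39 of the 40 proteasome genes then lay above 0, all but PSMB9, with 29 above that median. Among those lower under TMM scaling, PSMB10, PSME1 and PSME2 then stood at 0.18, 0.02 and 0.12, below that median. Directions here are relative to the median of all genes under TMM scaling. At an unadjusted p below 0.05, 18 of the 40 proteasome genes passed, including those 2, against 19.6% of all tested genes.

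**Figure D1:**
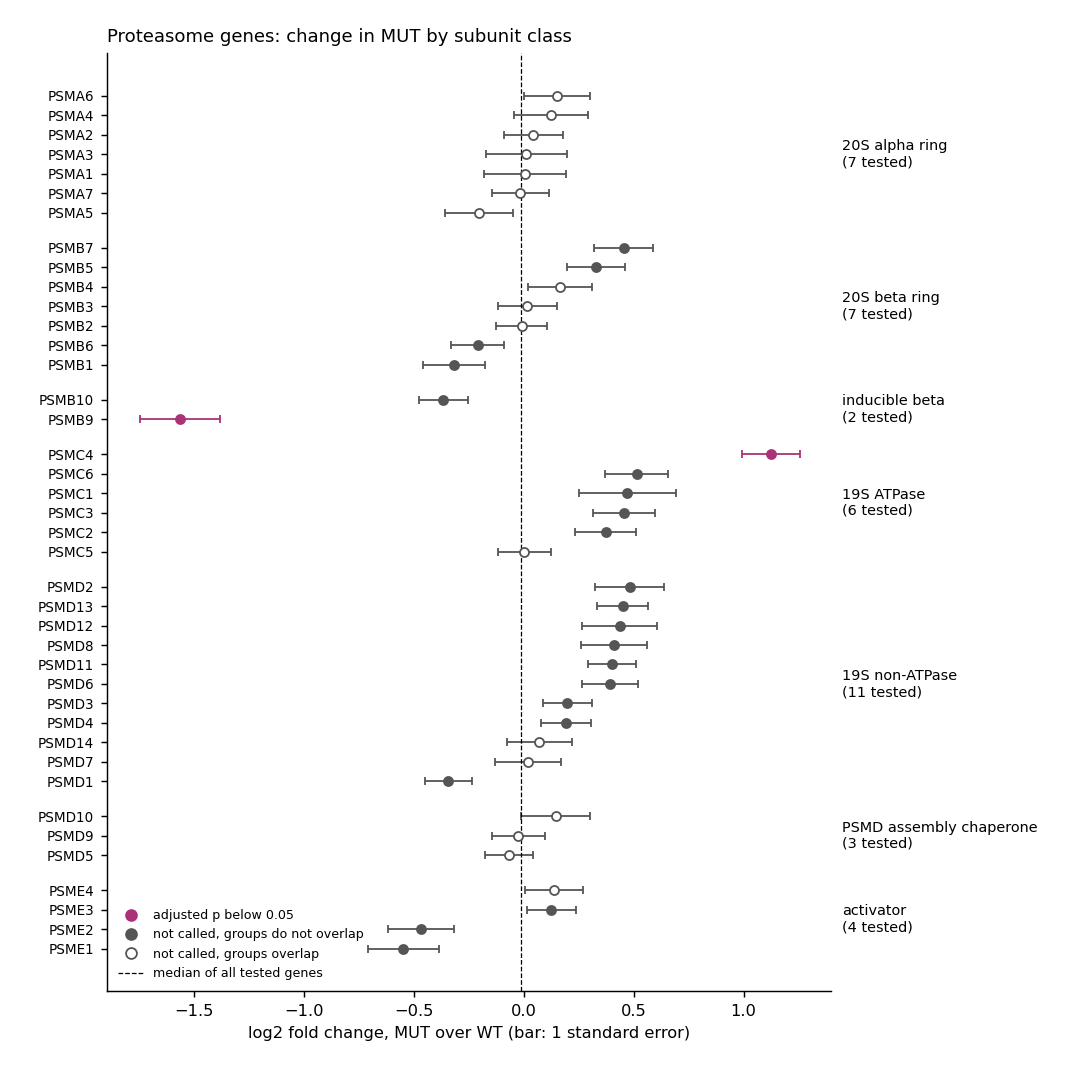
Log2 fold change (MUT over WT) with its standard error for each of the 40 tested proteasome genes, one point per gene, arranged by subunit class. Bars are 1 standard error, filled points are genes whose groups do not overlap, and the dashed line is the median of all tested genes. PSMC4 at 1.12 and PSMB9 at -1.57 lie far outside the other genes, the 19S classes lie mostly above 0, and the 20S rings scatter around it.

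PSMC4 encodes Rpt3, which is an ATPase of the base of the 19S particle and lies at chr19:39971165-39981764 (GRCh38). Its level was 16.6, 19.8 and 15.4 CPM in the WT libraries and 37.3, 39.6 and 36.0 CPM in the MUT libraries. The lowest MUT library was well above the highest WT library, and both groups were tight. The mean was 17.3 ± 2.29 CPM in WT and 37.7 ± 1.81 CPM in MUT (SD, n = 3). This is a log2 fold change of 1.12 (SE 0.13), or 2.18-fold, with an adjusted p of 0.00659 by edgeR. Among the 14808 tested genes PSMC4 ranked 30 by p and 234 by log2 fold change. It lost its call without WT replicate 1 (log2 fold change 1.11, adjusted p = 0.0656), where its fold change hardly moved.

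The other ATPase genes moved much less. PSMC6 (Rpt4) measured 5.20, 5.72 and 4.77 CPM in WT and 7.35, 8.75 and 6.30 CPM in MUT, with a log2 difference of 0.51 (SE 0.14, adjusted p = 0.101). PSMC3 (Rpt5) measured 17.2, 20.4 and 16.4 CPM in WT and 22.5, 28.3 and 23.1 CPM in MUT, a log2 difference of 0.45 (adjusted p = 0.127). The groups did not overlap for either gene, but neither passed the test. PSMC2 (Rpt1) gave 0.37 (adjusted p = 0.190). PSMC5 (Rpt6), the lowest of the ring in log2 fold change, measured 18.3, 18.4 and 16.2 CPM in WT and 17.3, 19.4 and 16.3 CPM in MUT. Its groups overlapped fully, at a log2 fold change of 0.00 (SE 0.12).

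PSMC1 (Rpt2) needs a separate reading, because it shares sequence with processed copies. Its log2 difference was 0.47 (SE 0.22, adjusted p = 0.286), from 2.13 ± 0.64 CPM in WT and 2.92 ± 0.31 CPM in MUT. Its pseudogenes held 76.2% of the counts assigned to PSMC1 and its pseudogenes together, and PSMC1P1 on chromosome 3 alone held 72.8%. Summed over PSMC1 and those pseudogenes, the level was 7.27, 8.88 and 7.10 CPM in WT and 10.5, 16.4 and 11.1 CPM in MUT. How the reads were divided between the copies is uncertain, so the value of PSMC1 alone is uncertain too. Of the 20 proteasome genes with pseudogene rows, PSMC1 was the 1 with more than 5% of its counts in them, and PSMC4 has no pseudogene row in the table.

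**Figure D2:**
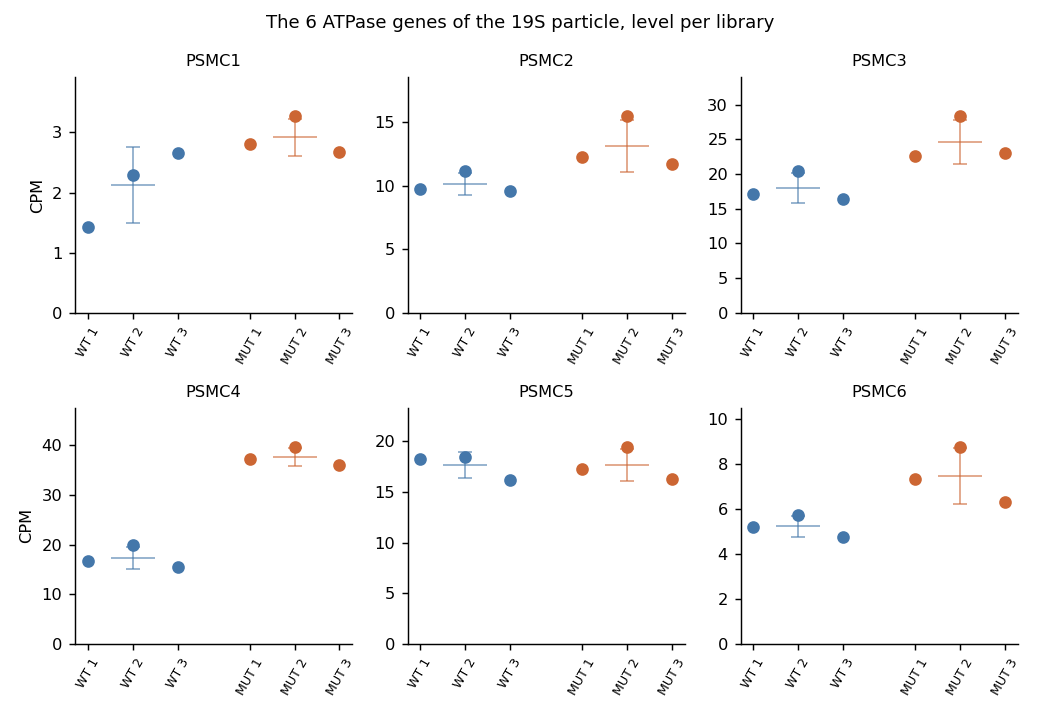
Level of the 6 ATPase genes of the 19S particle in CPM, one point per library, with the group mean and SD. For PSMC4 the 3 MUT libraries, at 36.0 to 39.6 CPM, stand above the WT libraries at 15.4 to 19.8 CPM, while the points of PSMC5 coincide.

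The 6 ATPases occupy 1 position each in the assembled ring, so their shares of the summed signal can be read within each library without any scaling between libraries. PSMC4 took 24.3%, 25.5% and 23.7% of the summed counts of the 6 genes in WT and 37.5%, 34.5% and 37.5% in MUT. In MUT this share was therefore higher in every library, with a mean of 36.5% ± 1.73 against 24.5% ± 0.92 (SD, n = 3). Per transcript length, as a share of the 6 genes' summed TPM, PSMC4 ranked below PSMC3 and PSMC5 in WT and above them in MUT. It stood at 23.0% ± 1.39 in WT, against 27.5% ± 1.46 for PSMC3 and 31.9% ± 2.18 for PSMC5. In MUT it stood at 35.6% ± 2.28, against 26.4% ± 0.76 for PSMC3 and 22.8% ± 0.96 for PSMC5. PSMC1, PSMC2 and PSMC6 made up the remainder, each at group means of 1.05% to 9.20%, with overlapping groups. These shares are a description and were not tested, because PSMC4 was selected with its difference known, and 3 against 3 libraries cannot give an exact permutation p below 0.1.

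The RefSeq table of assembly GRCh38.p14 held a 300-base window around the transcription start, from 250 bases before to 50 after, for 38 of the 43 genes. The sequence before the start of PSMC4 is shown because PSMC4 is the called member of the 19S particle. It lies at chr19:39970915-39971164 on the plus strand and ends at the base before the start. Capitals mark the match to TTCNNNGAA, the gamma-activated sequence bound by STAT factors.
PSMC4: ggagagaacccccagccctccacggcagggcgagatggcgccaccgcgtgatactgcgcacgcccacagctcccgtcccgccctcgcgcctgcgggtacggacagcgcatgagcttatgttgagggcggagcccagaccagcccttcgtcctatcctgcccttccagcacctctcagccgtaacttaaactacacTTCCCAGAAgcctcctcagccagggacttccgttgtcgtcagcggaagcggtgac

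Just inside the transcript, the window of PSMC4 also holds the core of an antioxidant response element, TGACNNNGC, the type of site through which NRF1 and its relative NRF2 act. It reads on the minus strand, and the 30 bases around it, at chr19:39971182-39971211 on the plus strand, carry the match in capitals.
PSMC4 element: acagaggccgGCTTGGTCActatggaggag
On either strand, TGACNNNGC stood in 11 of the 38 proteasome windows (28.9%) and in 13.6% of all 27305 windows. By class it stood in 1 of 6 ATPase windows, 3 of 10 non-ATPase windows, 3 of 4 activator windows, 2 of 3 windows of PSMD assembly chaperones, 1 of 4 in the standard beta ring, 1 of 4 inducible or tissue-specific beta windows and 0 of 7 alpha-ring windows. PSMC4 was thus the 1 ATPase gene whose window held it. Of the other genes with it, PSMD3 and PSMD12 lay higher in MUT without overlap. PSMB9, PSMD1, PSME1 and PSME2 lay lower without overlap, and in PSMB3, PSMD5, PSMD9 and PSME4 the groups overlapped. A part of this element in the levels was not tested. CCAAT stood in 47.4% of the proteasome windows and 35.7% of all windows. For the site of nuclear respiratory factor 1, which reads GCGC, any base, then TGCGC, these shares were 13.2% and 6.28%. TTCNNNGAA, searched after the values were known, stood in 13.2% and 7.88%. A match is a description of these letters and does not show binding.

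The 20 nearest tested protein-coding genes, 10 on each side of PSMC4 within 1037 kb, lay on both sides of 0. Of these, 8 lay above 0 and 12 below, with a median log2 fold change of -0.08. The groups did not overlap in 3 that were higher, against 12.8% of all tested genes, and in 6 that were lower, against 13.4%. None was called higher by edgeR, and 7 of the 20 had an unadjusted p below 0.05, against 19.6% of all tested genes. SUPT5H, which encodes a transcription elongation factor, came closest, at 1.93 ± 0.40 CPM in WT and 3.57 ± 0.47 CPM in MUT (log2 difference 0.87, SE 0.18, adjusted p = 0.0501). It was named after its value was seen, as were TIMM50 and C19orf47, the other 2 higher without overlap, at 0.47 and 0.42. FBL, which encodes the nucleolar RNA methyltransferase fibrillarin, fell from 75.5 ± 2.67 CPM in WT to 50.3 ± 1.38 CPM in MUT, a log2 fold change of -0.59 (adjusted p = 0.0475). The nearest tested neighbours were FCGBP, at a distance of -107.8 kb, and ZNF780B, at 57.1 kb. FCGBP was close to the detection limit, at 0 to 0.347 CPM with a log2 difference of 0.87 (SE 0.89). ZNF780B stood at 0.63 ± 0.084 CPM in WT and 0.526 ± 0.031 CPM in MUT, a log2 difference of -0.28 (SE 0.25).

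**Figure D3:**
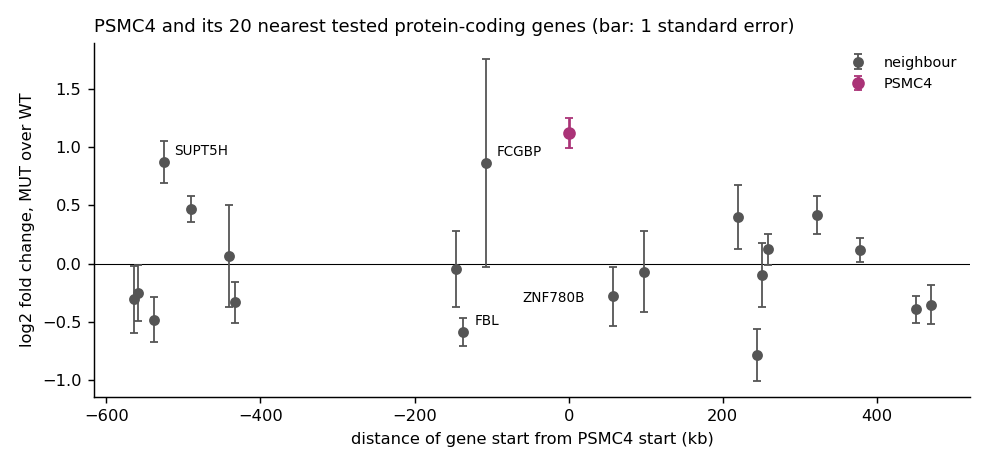
Log2 fold change (MUT over WT) with its standard error for PSMC4 and its 20 nearest tested protein-coding neighbours, against distance from the start of PSMC4 in kb. PSMC4 at 1.12 is the highest point, SUPT5H and FCGBP follow at 0.87, and the median of the neighbours is -0.08.

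The 11 PSMD genes for non-ATPase subunits of the 19S particle encode its scaffold, ubiquitin receptors and deubiquitinase. All MUT libraries lay above all WT libraries in 8 of them, against 12.8% of all tested genes. They lay below in 1, against 13.4%. None was called by edgeR at an adjusted p below 0.05, and 7 had an unadjusted p below 0.05, against the 19.6% of all tested genes. PSMD2, which encodes the scaffold Rpn1, had the largest difference. It measured 12.1, 14.7 and 13.5 CPM in WT and 14.9, 21.7 and 19.6 CPM in MUT, a log2 difference of 0.48 (SE 0.16, adjusted p = 0.141). The lowest MUT value was only slightly above the highest WT value. PSMD13 (Rpn9) measured 18.1, 19.8 and 18.6 CPM in WT and 24.1, 28.2 and 24.9 CPM in MUT, a log2 difference of 0.45 (SE 0.12) with the smallest adjusted p of the class, 0.0843. PSMD11 (Rpn6), a lid subunit, came close to it at 10.2 ± 0.50 CPM in WT and 13.5 ± 0.51 CPM in MUT (adjusted p = 0.0935). For both, the gap between the groups was wider than the spread within either.

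PSMD12 (Rpn5), PSMD8 (Rpn12) and PSMD6 (Rpn7), further lid subunits, gave log2 differences of 0.44, 0.41 and 0.39 without overlap of the groups. In PSMD3 (Rpn3) and in PSMD4, the ubiquitin receptor Rpn10, they were 0.20 and 0.19, again without overlap. PSMD7 (Rpn8) and PSMD14, the deubiquitinase Rpn11, overlapped between the groups, at 0.02 and 0.07. PSMD1, which encodes the second large scaffold Rpn2, went the other way. It measured 5.85, 5.68 and 5.83 CPM in WT and 4.57, 4.91 and 4.17 CPM in MUT, a log2 difference of -0.34 (SE 0.11, adjusted p = 0.128). PSMD2 and PSMD1 had the highest and the lowest log2 fold change of the class, and neither passed the test.

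Over all 6 libraries, the median of the 20S core genes lay near 0. Of the 7 alpha-ring genes tested, PSMA1 to PSMA7, the groups overlapped in 7, while 26.1% of all tested genes did not overlap. The median log2 fold change of the 7 was 0.01, and 0 had an unadjusted p below 0.05, against 19.6% of all tested genes. None of the 7 was called by edgeR. PSMA6 (alpha1) was highest, with 23.9, 29.8 and 28.9 CPM in WT and 28.5, 36.1 and 27.1 CPM in MUT (log2 difference 0.15, SE 0.15). PSMA5 (alpha5) was lowest, with 33.4, 38.8 and 33.3 CPM in WT and 29.2, 36.7 and 25.5 CPM in MUT (log2 difference -0.21, SE 0.15). MUT replicate 2 was the highest MUT library for all 7 alpha-ring genes. PSMA1 shows this layout, with 33.4 CPM in MUT replicate 2, 22.4 and 20.5 CPM in the other MUT libraries and 23.5 to 27.6 CPM in WT. Without that library 3 of the 7 genes had both MUT libraries below all WT libraries, against 19.9% of all tested genes. In the 4 libraries low in ribosomal RNA, all 7 lay below 0 with both MUT libraries below both WT libraries, against 25.1% of all tested genes, at a median of -0.12. PSMA8, the testis form of alpha4, had 0 counts in all 6 libraries.

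In the standard beta ring the 3 catalytic subunits diverged. PSMB7, which carries the trypsin-like site, measured 41.9, 49.0 and 45.2 CPM in WT and 62.6, 67.9 and 55.9 CPM in MUT. All MUT values were above all WT values, with a log2 difference of 0.45 (SE 0.13, adjusted p = 0.112). PSMB5, the chymotrypsin-like subunit that proteasome inhibitor drugs bind, measured 53.2, 62.6 and 63.8 CPM in WT and 73.3, 77.5 and 74.8 CPM in MUT (log2 difference 0.33, adjusted p = 0.212). PSMB6, the caspase-like subunit, lay lower in every MUT library, at 67.4 ± 3.04 CPM in WT and 58.2 ± 2.70 CPM in MUT (log2 difference -0.21, adjusted p = 0.386). Of the 4 subunits without a catalytic site, PSMB1 had the lowest log2 fold change. It measured 42.2, 43.1 and 46.8 CPM in WT and 35.9, 40.2 and 29.8 CPM in MUT, a log2 difference of -0.32 (SE 0.14, adjusted p = 0.254). For PSMB2, PSMB3 and PSMB4 the groups overlapped, at log2 differences of -0.01 to 0.16. None of the 7 beta genes was called by edgeR, and 3 had an unadjusted p below 0.05, against 19.6% of all tested genes.

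The relation between the particles can be read within each library from TPM, which is per transcript length. The summed TPM of the 17 genes of the 19S particle was 22.3%, 22.0% and 20.8% of that of the constitutive 20S genes in WT. In MUT it was 26.0%, 28.4% and 26.1%. Every MUT library was above every WT library, and the means were 21.7% ± 0.79 and 26.9% ± 1.37 (SD, n = 3). Without PSMC4 the ratio was 20.3% ± 0.66 in WT and 23.9% ± 1.39 in MUT, again without overlap. The share of the summed TPM of all proteasome genes was 22.5% ± 0.14 in WT and 21.7% ± 1.37 in MUT for the alpha ring. For the standard beta ring it was 51.0% ± 0.30 and 51.1% ± 2.22. The ATPases held 4.43% ± 0.41 and 5.97% ± 0.31, and the non-ATPases 11.5% ± 0.13 and 13.6% ± 0.49.

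**Figure D4:**
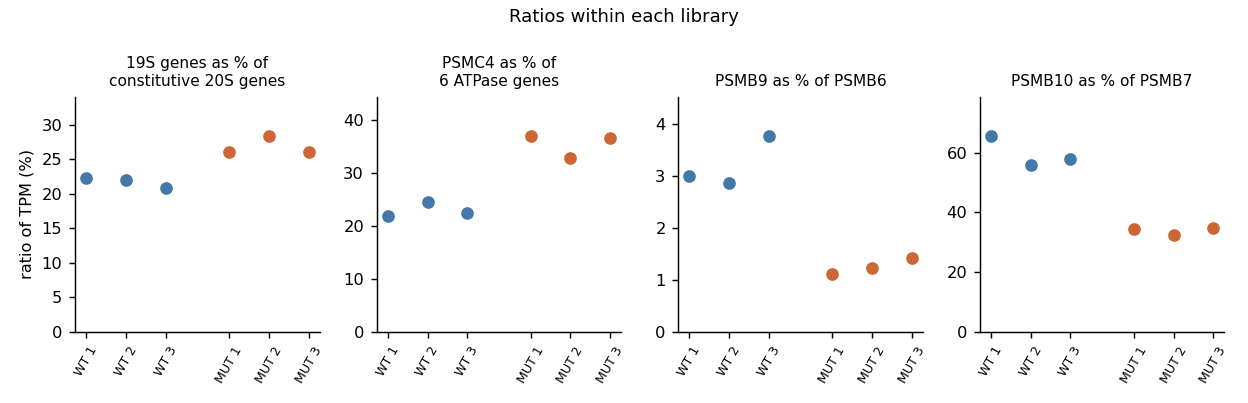
Ratios of TPM within each library, in percent, one point per library: the 19S genes over the constitutive 20S genes, PSMC4 over the 6 ATPase genes, PSMB9 over PSMB6 and PSMB10 over PSMB7. The first 2 ratios are higher in all 3 MUT libraries than in any WT library, and the last 2 are lower in all 3.

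The medians of both sets depended on the libraries used. Without MUT replicate 2, 13 of the 17 genes of the 19S particle lay above 0, with a median log2 fold change of 0.33. On the same libraries, 13 of the 17 again had MUT above WT without overlap, against 18.0% of all tested genes, and the 14 constitutive 20S genes had a median of -0.04. In the 4 libraries low in ribosomal RNA the medians were 0.25 for the 19S genes and -0.07 for the 20S genes. Both MUT libraries lay below both WT libraries in 9 of the 14 genes of the 20S core and above them in 2. For the 19S particle they lay above in 13 of the 17 genes and below in 2. Over all tested genes these shares were 23.5% above and 25.1% below. There the non-ATPase median was 0.25, below the 0.39 over all 6 libraries, and the ATPase median was 0.27, below 0.46. Transcript length, estimated from the deposited counts and FPKM, differed between the sets, with medians of 924 bases for the 20S genes and 1677 for the 19S genes. Over all tested protein-coding genes, the median log2 fold change was -0.22 for transcripts under 750 bases, -0.09 for 750 to 1500, 0.02 for 1500 to 3000 and 0.03 above. The part of transcript length and of these libraries in the difference was not tested.

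PSMB9 encodes beta1i, the immunoproteasome counterpart of PSMB6, and lies in the major histocompatibility complex at chr6:32854192-32859851. It measured 2.42, 2.51 and 3.17 CPM in WT and 0.812, 0.924 and 0.989 CPM in MUT, from 137 to 188 and 59 to 90 counts per library. The groups were far apart relative to their spread, with 2.70 ± 0.41 CPM in WT and 0.908 ± 0.089 CPM in MUT (SD, n = 3). The log2 fold change was -1.57 (SE 0.18), with an adjusted p of 0.0065 by edgeR. Without WT replicate 2 it was -1.58 with an adjusted p of 0.0511, just past the threshold. As a share of the TPM of PSMB6, PSMB9 stood at 3.21% ± 0.49 in WT and 1.25% ± 0.16 in MUT (SD, n = 3). It was a minor form in both groups by this measure, and lower in every MUT library.

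PSMB10, which encodes beta2i, the counterpart of PSMB7, was the most abundant of the inducible genes. It measured 27.3, 27.2 and 25.9 CPM in WT and 21.3, 21.8 and 19.2 CPM in MUT, a log2 difference of -0.37 (SE 0.11, adjusted p = 0.119). The groups did not overlap, but the gene did not pass the test. Because PSMB7 lay higher in MUT and PSMB10 lower, their ratio differed more than either gene. The TPM of PSMB10 was 65.6%, 56.0% and 57.8% of that of PSMB7 in WT and 34.3%, 32.3% and 34.6% in MUT. PSMB8, which encodes beta5i, was close to the detection limit, with 2, 5 and 0 counts in WT and 1, 14 and 7 in MUT, and was not tested. PSMB11, the thymus form of beta5, had 0 counts in all 6 libraries. Together PSMB8, PSMB9 and PSMB10 reached 16.1% ± 1.24 of the summed TPM of PSMB5, PSMB6 and PSMB7 in WT and 10.6% ± 0.17 in MUT (SD, n = 3).

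**Figure D5:**
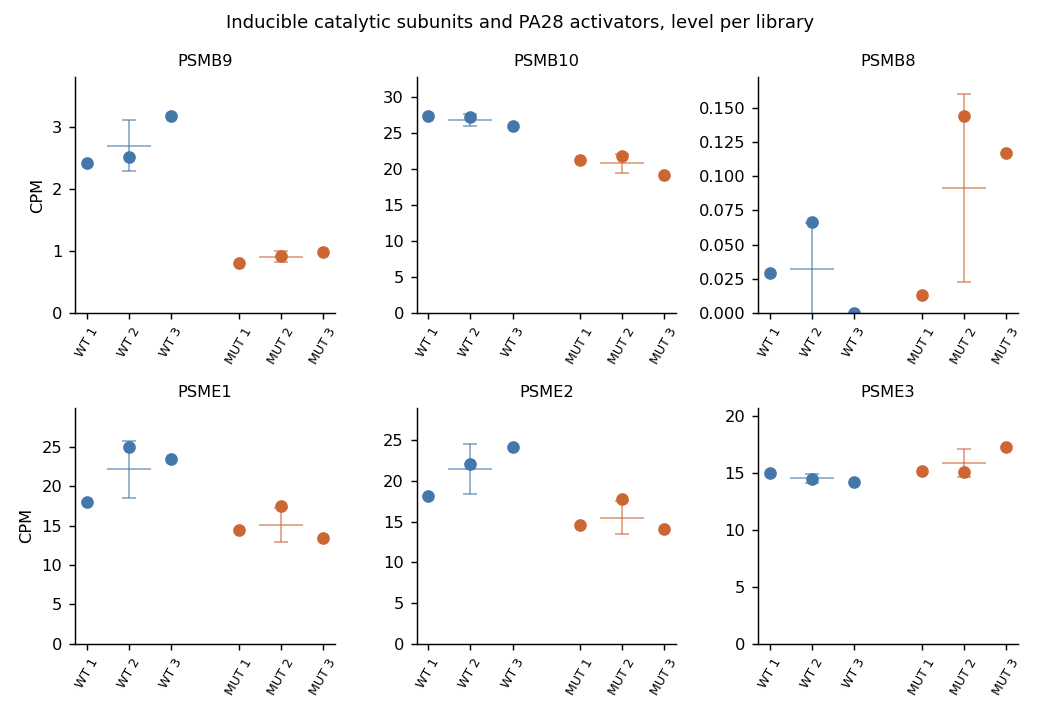
Level of PSMB9, PSMB10, PSMB8, PSME1, PSME2 and PSME3 in CPM (axes differ by panel and start at 0), one point per library, with the group mean as a line and the SD as a bar. PSMB9, PSMB10, PSME1 and PSME2 lie lower in all 3 MUT libraries than in any WT library, PSME3 does not, and PSMB8 stays near 0.

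The sequence before the start of PSMB9 is shown because this gene had the lowest log2 fold change of the proteasome genes. It lies at chr6:32853942-32854191 on the plus strand. The neighbouring TAP1, which encodes a subunit of the peptide transporter, starts 488 bases away on the other strand. Capitals mark the matches to CCAAT and, on the minus strand, to TGACNNNGC.
PSMB9: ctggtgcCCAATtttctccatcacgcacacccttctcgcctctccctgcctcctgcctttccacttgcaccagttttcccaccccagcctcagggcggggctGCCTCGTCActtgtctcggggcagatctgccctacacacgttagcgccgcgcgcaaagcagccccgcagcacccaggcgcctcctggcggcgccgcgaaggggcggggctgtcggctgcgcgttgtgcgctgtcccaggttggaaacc
TAP1 did not share the difference of PSMB9. It stood at 1.58 ± 0.24 CPM in WT and 2.16 ± 0.33 CPM in MUT, with overlapping groups and a log2 difference of 0.44 (adjusted p = 0.238).

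The activator genes split into PSME1 and PSME2, which lay lower in MUT, and PSME3 and PSME4, which differed little. PSME1 (PA28 alpha) measured 18.0, 24.9 and 23.4 CPM in WT and 14.4, 17.5 and 13.4 CPM in MUT, a log2 difference of -0.55 (SE 0.16, adjusted p = 0.111). PSME2 (PA28 beta) measured 18.1, 22.1 and 24.1 CPM in WT and 14.6, 17.8 and 14.1 CPM in MUT, a log2 difference of -0.47 (SE 0.15, adjusted p = 0.135). Neither pair of groups overlapped, though the highest MUT value came close to the lowest WT value in each, and neither gene passed the test. Both passed it in the 4 libraries low in ribosomal RNA, with adjusted p of 0.0118 for PSME1 and 0.0237 for PSME2 by edgeR. There 2.66% of all tested genes were called. That fit held only WT replicates 2 and 3 and MUT replicates 1 and 3. Those MUT libraries were the most alike of all replicate pairs, with a chi-square per gene of 23.2 between their counts, against 186 for the WT pair. The summed TPM of PSME1 and PSME2 was 7.16% ± 0.77 of that of the constitutive 20S genes in WT and 4.81% ± 0.25 in MUT, without overlap. PSME3, the nuclear PA28 gamma, measured 14.5 ± 0.40 CPM in WT and 15.8 ± 1.21 CPM in MUT (log2 difference 0.12). PSME4, the PA200 activator, measured 4.0, 4.70 and 3.49 CPM in WT and 4.29, 4.58 and 4.58 CPM in MUT, with overlapping groups (log2 difference 0.14, SE 0.13).

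PSMB10, PSME1 and PSME2, which lay lower together, share a 10-base run in their windows. It fits an interferon-stimulated response element, GAAA, any 2 bases, then GAAA, which was searched after the values were known. The exact run GAAAGCGAAA was copied from the window of PSMB10, so PSMB10 holds it by construction. On either strand it stood in 30 of 27305 windows (0.110%), and 3 of these belong to the proteasome genes. These counts are a description, and a part of the run in the lower levels was not tested. The looser element stood in 5 of the 38 proteasome windows (13.2%) and in 3.65% of all windows, and the window of PSMB9 did not hold it. The other 2 genes with it were PSMA4 and PSMB4, whose groups overlapped at log2 differences of 0.12 and 0.16. The sequences are given as each gene is read, with the run in capitals. PSMB10 lies at chr16:67936852-67936881 on the minus strand, PSME1 at chr14:24136189-24136218 on the plus strand, where the run is on the opposite strand, and PSME2 at chr14:24146619-24146648 on the minus strand.
PSMB10: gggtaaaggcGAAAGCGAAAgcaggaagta
PSME1: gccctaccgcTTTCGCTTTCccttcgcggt
PSME2: cctggggagtGAAAGCGAAAgcccgggcga

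The other interferon-induced genes lay on both sides of 0. Of 16 listed, 9 had enough counts for a test, of which 3 lay above 0 and 6 below, with a median log2 fold change of -0.06. All MUT libraries lay below all WT libraries in 3 of the 9, against 13.4% of all tested genes. They lay above in 0, against 12.8%. None was called by edgeR, and 2 had an unadjusted p below 0.05, against 19.6% of all tested genes. ISG15, a ubiquitin-like modifier, measured 34.0, 41.7 and 46.0 CPM in WT and 30.9, 24.3 and 27.2 CPM in MUT (log2 difference -0.56, adjusted p = 0.0937). IFITM1, a membrane protein that restricts viral entry, was low, at 0.425 ± 0.079 CPM in WT and 0.162 ± 0.12 CPM in MUT (adjusted p = 0.232).

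Genes of class I antigen presentation, the pathway that receives peptides from the immunoproteasome, mostly lay the other way. Of the 12 tested, 8 lay above 0 and 4 below, and the median was 0.18. All MUT libraries lay above all WT libraries in 5, against 12.8% of all tested genes, and below them in 0, against 13.4%. None was called by edgeR, and 6 had an unadjusted p below 0.05, against 19.6% of all tested genes. HLA-B, a class I heavy chain, measured 6.50, 8.18 and 5.83 CPM in WT and 9.95, 11 and 11.6 CPM in MUT, a log2 difference of 0.66 (adjusted p = 0.0554). HLA-C, another heavy chain, measured 19.1 ± 2.30 CPM in WT and 29.0 ± 2.47 CPM in MUT (log2 difference 0.60, adjusted p = 0.0561). Reads of these related genes can be divided between them, so their single values are uncertain.

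The 3 PSMD genes whose products are assembly chaperones of the 19S base differed little. PSMD5 was lowest, at 5.97, 5.22 and 6.02 CPM in WT and 5.25, 5.67 and 5.48 CPM in MUT (log2 difference -0.07, SE 0.11). PSMD10, which encodes gankyrin, a chaperone that binds Rpt3, was highest, at 6.01, 7.83 and 7.82 CPM in WT and 6.58, 9.05 and 8.28 CPM in MUT (log2 difference 0.14, SE 0.16). PSMD9 (p27) lay between them at -0.03. The groups overlapped in all 3, including the chaperone of the PSMC4 product. Of the 17 other assembly factors and proteasome-associated proteins tested, 6 lay above 0 and 11 below, with a median of -0.02. The groups overlapped in all but PSMF1, an inhibitor of the 20S core (-0.20), while 26.1% of all tested genes did not overlap. None of the 17 was called by edgeR, and 0 had an unadjusted p below 0.05, against 19.6% of all tested genes. The smallest p of these 17 belonged to SEM1, at -0.30 (adjusted p = 0.314), and PSMG4, a 20S assembly chaperone, at -0.29 (adjusted p = 0.334). SEM1 and ADRM1, which gave 0.17 with overlapping groups, encode further subunits of the 19S particle. Their symbols put them outside the PSM rule, so the counts, medians and ratios of the 19S genes leave them out.

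Of the 11 genes of the NRF1 pathway, 9 lay above 0 and 2 below, with a median log2 fold change of 0.29. All MUT libraries lay above all WT libraries in 3, against 12.8% of all tested genes. They lay below in 1, NFE2L2, which encodes NRF2 (-0.23), against 13.4%. By edgeR, 2 had an unadjusted p below 0.05, against 19.6% of all tested genes. MAFG, a small Maf protein that pairs with NRF1 and NRF2 on antioxidant response elements, was the 1 called, against 1.91% of all tested genes. It rose from 1.74, 1.71 and 1.97 CPM in WT to 2.69, 2.95 and 3.59 CPM in MUT, without overlap, a log2 fold change of 0.77 (adjusted p = 0.0481). MAFK, another small Maf, measured 1.16 ± 0.21 CPM in WT and 1.58 ± 0.082 CPM in MUT (adjusted p = 0.244). NFE2L1 itself gave a log2 difference of 0.47 (SE 0.23) with overlapping groups.

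Among 16 genes for ubiquitin, its activating enzymes and the factors that carry tagged proteins to the proteasome, 10 lay above 0 and 6 below. All MUT libraries lay above all WT libraries in 2, against 12.8% of all tested genes, and below them in 1, against 13.4%. By edgeR, 2 had an unadjusted p below 0.05, against 19.6% of all tested genes. NSFL1C, which encodes p47, a cofactor of the unfoldase p97, was the 1 called, against 1.91% of all tested genes. It rose from 7.68, 8.11 and 6.92 CPM in WT to 12.5, 15.5 and 13.8 CPM in MUT, a log2 fold change of 0.88 (SE 0.13, adjusted p = 0.0167). The MUT values lay well clear of the WT values. FAF2, an adaptor of p97 at the endoplasmic reticulum, gave 0.44 (adjusted p = 0.224). Of the 12 genes of the proteotoxic stress response, 8 lay above 0 and 4 below, with a median of 0.26. All MUT libraries lay above all WT libraries in 3 of the 12, against 12.8% of all tested genes. They lay below in 2, HSPB1 (-0.51) and TRIB3 (-0.26), against 13.4%. None was called by edgeR, and 6 had an unadjusted p below 0.05, against 19.6% of all tested genes. SQSTM1, the autophagy receptor p62, measured 27 ± 1.95 CPM in WT and 36.1 ± 1.71 CPM in MUT (log2 difference 0.42, adjusted p = 0.0965). HMOX1, which encodes haem oxygenase 1, measured 3.32 ± 0.22 CPM in WT and 4.6 ± 0.72 CPM in MUT (log2 difference 0.47, adjusted p = 0.121).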

How the data were processed

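Expected counts per gene, FPKM and TPM were the units of the 3 tables deposited by the authors. The expected counts deposited by the authors carry no normalization, and the FPKM and TPM deposited by the authors are scaled to depth and transcript length. Per the submitters' processing notes, the tools were RSEM 1.2.28, STAR 2.5.2b, FastQC 0.12.1 and DESeq2 1.42.0 and the build was hg38 (GRCh38). The notes give no roles. RSEM apportions reads that fit several similar genes.

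The proteasome genes, the other gene lists and the rule for naming genes were chosen with earlier results of these data known. Every proteasome gene is accounted for. Values per library are given for PSMC4, other called genes, PSMB8, PSMB9, PSMB10 and the genes with the highest and lowest log2 fold change of a class. Of the other lists, called genes and the 2 with the smallest p are named, and of the neighbours of PSMC4, called genes and the nearest on each side. Further genes were named after their values were seen.

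Expected counts, rounded to whole numbers, were tested in R 4.3.3 with edgeR 4.0.16 (filterByExpr with a minimum count of 10, TMM factors, quasi-likelihood F-test, no covariate). P-values were Benjamini-Hochberg adjusted over all tested genes and called below 0.05. CPM uses the TMM-scaled library size, and its precision follows the counts, 46422 to 123023 per library over the proteasome genes. Replicates of a group differed by more than sampling noise. In simulated counts, genes drawn at random from all levels were changed and the others were not. With 14436 genes tested, 85.1% of 4-fold, 29.9% of 2-fold and 4.55% of 1.5-fold changes were called. Changed genes too low to test counted as not called. These shares do not give the share missed among the 19S genes, because the drawn genes were not matched to them in level. Alternatives were other size factors and filters, a robust fit, the replicate block, the DESeq2 Wald test, limma-voom and limma 3.58.1 on log2 TPM or FPKM, removal of structural RNA, and leaving out libraries. Promoter windows are from RefSeq, GRCh38.p14. Protein sequences and ribosome profiling were not analysed here.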

Additional observations from a re-analysis of the deposited data

How the results depend on the processing

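PSMC4 stayed above 0 and PSMB9 below 0 in every alternative that tested them, with calls that depended on the scaling and the number of libraries. The count of proteasome genes called higher was 0 with library size alone and with limma on log2(TPM + 1), on log2(TPM + 0.1) or on log2(FPKM + 1). It was 2 with no low-count filter (adding PSMC6) or a minimum of 1 CPM (adding PSMD13), and 3 with the DESeq2 Wald test (adding PSMB7 and PSMD13). The count called lower was 0 with library size alone and with the 3 limma fits on TPM or FPKM. It was 2 with no filter or with the DESeq2 Wald test (adding PSME1), and 3 in the 4 libraries low in ribosomal RNA (adding PSME1 and PSME2). All genes called numbered 283 as reported (1.91% of 14808 tested). They numbered 108 with library size alone (0.729%), 552 with the robust fit (3.73%) and 764 with the DESeq2 Wald test (5.16%). With no filter they numbered 1195 of 29369 tested (4.07%), and with the 1 CPM minimum 462 of 9922 (4.66%). Limma called 21 (0.736%) and 10 (0.351%) of 2853 on the TPM scales above, and 13 of 6231 (0.209%) on log2(FPKM + 1). Those fits tested 32 of the 40 proteasome genes on TPM and 38 on FPKM. The log2 fold change of PSMC4 was 1.65 with library size alone (adjusted p = 0.0702), 1.4 on log2(TPM + 1) (0.123), 1.71 on log2(TPM + 0.1) (0.136) and 1.55 on log2(FPKM + 1) (0.123). Over all its alternatives the adjusted p ran from 2.15e-11 to 0.136. PSMB9 lost its call with library size alone (-0.99, adjusted p = 0.166) and on log2(FPKM + 1) (-0.64, 0.336), and was not tested on the TPM scales. The cause of these changes was not tested. Leaving out 1 library at a time gave 0 to 1 proteasome genes called higher and 0 to 2 called lower. In all, 27 to 442 genes were then called (0.177% to 2.9% of those tested), and PSMC4 ran from 1.06 to 1.27.

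Class medians, minus the median of all tested genes, moved by more than the spread between libraries in the following cases. For the beta ring the value was 0.24 on log2(TPM + 1) and 0.19 on log2(FPKM + 1). For the inducible genes it was -0.14 on log2(TPM + 1), -0.25 on log2(TPM + 0.1), -0.57 on log2(FPKM + 1) and -1.01 in the 4 libraries low in ribosomal RNA. On the TPM scales that class held PSMB10 alone. In those 4 libraries it was 0.27 for the ATPases, 0.24 for the non-ATPases and -0.021 for all proteasome genes. For the activators it was -0.37 on log2(TPM + 0.1) and -0.30 on log2(FPKM + 1). On those scales the activator class held 3 genes, without PSME4, so the value is not for the same set. Leaving out 1 library gave 0.23 to 0.41 for the non-ATPases, the lowest without MUT replicate 2.

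The labels do not say whether the replicate numbers pair the samples. Correlations of deviations from the group mean were -0.46, -0.11 and 0.32 for numbers 1, 2 and 3. Not every sample correlated best with its own number, and the largest value, 0.49, joined WT replicate 1 and MUT replicate 2. With 3 libraries per group these correlations cannot show whether a number marks a shared culture. With the replicate block 296 genes were called (2%), PSMC4 at 1.13 (adjusted p = 0.0142) and PSMB9 at -1.56 (adjusted p = 0.0157).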
